A study of Bos taurus with 6 samples.

Results

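The genes described here are the enzymes of cholesterol synthesis that could be named in the authors' deposited table of insulin-responsive probe sets, together with INSIG1, a regulator of the pathway. They were taken by gene symbol or title: 10 probe sets of 9 genes, out of 158 rows in that table and 24128 probe sets on the array. Of the 10, 7 were named by symbol or gene number, and 3 (IDI1, SQLE and EBP) by their title only. The tissue was cortex of fetal bovine ovaries, collected at a slaughterhouse and cut into pieces, and the labels give no breed, fetal age or number of animals. Insulin pieces were kept for 2 days in medium with insulin (ITS+). Control pieces were kept for 2 days in medium with TS+, listed as transferrin, selenous acid, BSA and linoleic acid. Each group had 3 Affymetrix arrays, numbered 1 to 3, with median signals of 196 to 212 over all 6. The series description calls insulin pieces enriched for primary follicles, the first growing stage, and control pieces for primordial follicles, the resting stage, so medium and follicle stage cannot be told apart. Each array measured whole pieces, in which more cells of a type and more RNA per cell cannot be told apart either.

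Cholesterol is built from acetyl-CoA. Early enzymes make mevalonate, middle enzymes turn it into the branched units that are joined to squalene, and late enzymes, largely in the membrane of the endoplasmic reticulum, close the sterol rings and trim them. The genes are known to be switched on together by SREBP transcription factors when sterol in that membrane is low, and INSIG1 holds SREBP back when sterol is plentiful. In the ovary cholesterol is a membrane component and the starting material of steroid hormones, and in the mouse growing oocytes are known to obtain much of it from the granulosa cells around them.

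All 10 probe sets had higher signals with insulin, by a factor of 1.69 (FDFT1) to 2.33 (INSIG1) in the ratio of group means, with a median of 1.95. On the log2 scale their median difference was 0.95, against -0.00111 over the 14410 probe sets tested. The rows of the authors' deposited table all carry a p-value under 0.001 for this same contrast, so the direction and size of these differences were part of how the genes were chosen, and they are given as a description without a test. In 10 of 10 probe sets the lowest insulin array lay above the highest control array, as it did in 12.3% of all probe sets tested. As a measure of the gap, the lowest insulin signal was 1.51 to 1.99 times the highest control signal of the same probe set. This gap was not computed over all probe sets. Of the 10, 10 passed the filter on dim probe sets.

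**Figure D1:**
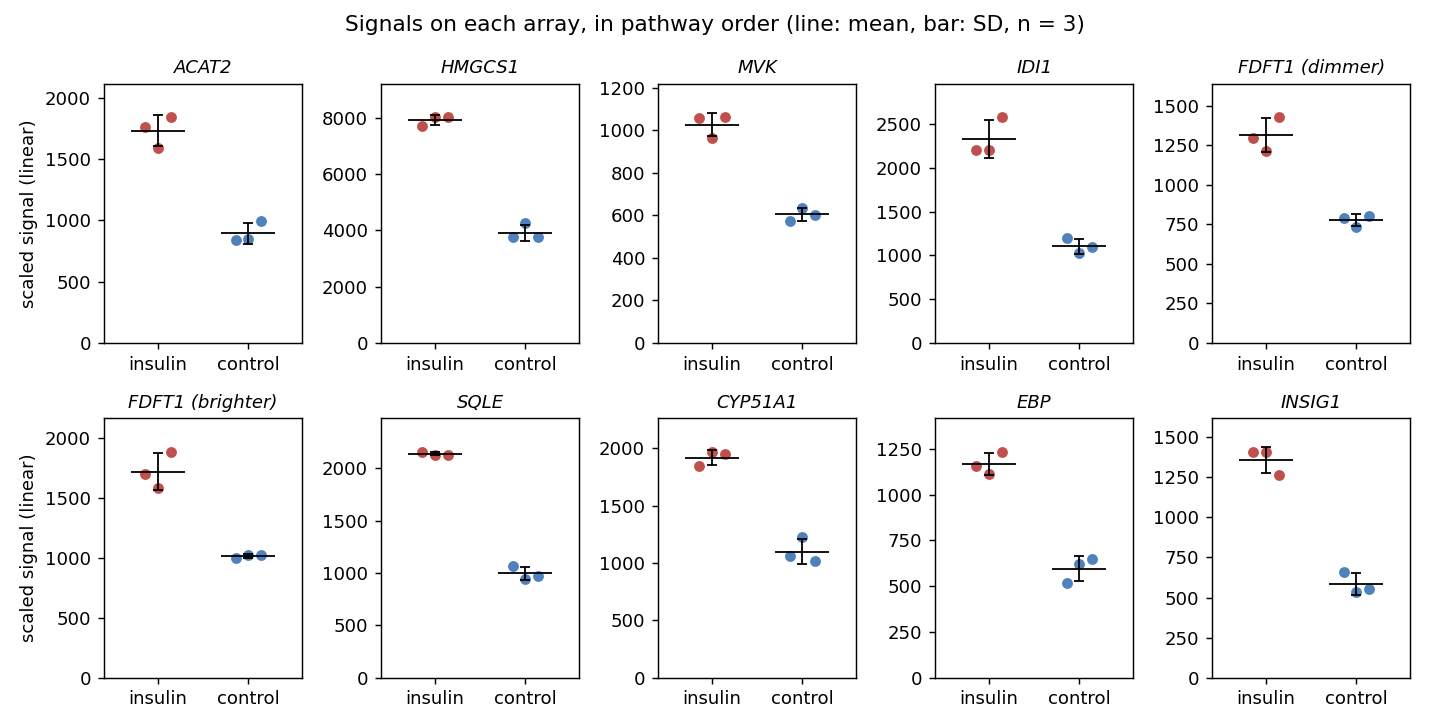
Scaled signal (linear axis from 0) of each probe set on the 3 insulin and the 3 control arrays, in pathway order and ending with INSIG1; points are arrays, lines are group means and bars are SD. In every panel all insulin points lie above all control points, and SQLE shows the tightest insulin group (SD 14.3 around 2139).

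The entry of the pathway was represented by ACAT2 and HMGCS1. ACAT2, the cytosolic thiolase that joins acetyl-CoA units, had signals of 1761, 1592 and 1840.0 on insulin arrays 1, 2 and 3, against 843, 851 and 993 on control arrays 1, 2 and 3. Its mean was 1731 ± 127 with insulin and 896 ± 84.2 in control pieces (SD, n = 3 each), and the log2 difference was 0.94 (limma SE 0.13). Control array 3 was the highest control, yet insulin array 2, the lowest of its group, was still 1.60 times as bright. HMGCS1, which adds a further acetyl unit to make HMG-CoA, had 7724, 8022 and 8020.2 on the insulin arrays and 3756, 4251 and 3769 on the control arrays. The log2 difference was 1.01 (SE 0.11), and the insulin arrays were closer together (coefficient of variation 2.16%) than the control arrays (7.19%).

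The array held a further HMGCS1 probe set by its shared cluster number (Bt.22763), which the authors' table does not list and which carries no name of its own. It was dimmer, with 399, 685 and 545 on the insulin arrays against 134, 191 and 140.4 on the control arrays. Its groups did not overlap either, and its log2 difference of 1.69 (SE 0.22) was larger than the 1.01 of the named HMGCS1 probe set, with a wider spread (insulin coefficient of variation 26.3%). Just inside the limit of the authors' deposited table, EBP (authors' p 0.00076) and CYP51A1 (authors' p 0.000737) had smaller differences, of 0.96 and 0.80, with coefficients of variation of 11.4% or less in each group.

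MVK and IDI1 stood for the mevalonate and isoprene steps. MVK, the kinase that adds the first phosphate to mevalonate, had signals of 1056, 965 and 1061 with insulin, against 575, 637 and 602 in control pieces. Its log2 difference was 0.75 (SE 0.11). Its probe set carries the suffix _s_at, Affymetrix's mark for probes shared by transcripts of more than 1 gene, so part of its signal may belong to another transcript. IDI1, which converts isopentenyl diphosphate to its reactive isomer, had 2207, 2208 and 2577 on the insulin arrays and 1197, 1025 and 1094 on the control arrays. The IDI1 difference was 1.06 on the log2 scale (SE 0.13), and insulin array 3 stood above the other insulin arrays, which were almost equal. The title of this row names the isomerase without a number, so the related gene IDI2 cannot be told apart by name.

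FDFT1, squalene synthase, catalyses the first step that serves sterols alone, and it was the only gene here with more than 1 named probe set. The dimmer one had signals of 1300.5, 1215 and 1427 with insulin and 793, 736 and 806 in control pieces. The brighter one had 1699, 1581 and 1884 with insulin and 997, 1023 and 1029 in control pieces. Their log2 differences, 0.74 and 0.75 (SE 0.12 each), were the smallest among the 10 probe sets. The brighter exceeded the dimmer by 0.00548, and by -0.0901 to 0.0572 over the same-numbered pairs of arrays. Both had insulin array 3 highest and insulin array 2 lowest. Another probe set of that cluster (Bt.21724), not listed in the authors' table, lay below the filter, with signals of 52.7, 31.5 and 6.31 on the insulin arrays and 29.3, 16.8 and 5.37 on the control arrays. Its groups overlapped widely, and at such signals it gave no usable difference.

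SQLE, the squalene epoxidase and a known control point of the pathway, had nearly the same signal on every insulin array, 2156, 2129 and 2133, against 1070.5, 947 and 976 on the control arrays. Its mean was 2139 ± 14.3 with insulin and 998 ± 64.5 in control pieces (SD, n = 3 each), and its insulin coefficient of variation of 0.667% was the lowest of the 10. The log2 difference was 1.09 (SE 0.11). SQLE also had the widest gap between groups, its lowest insulin signal being 1.99 times its highest control signal.

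Past squalene, 2 of the ring-trimming enzymes were named. CYP51A1, the cytochrome P450 that removes a methyl group from lanosterol, had 1847, 1967 and 1947 on the insulin arrays and 1057, 1225 and 1014 on the control arrays. Its log2 difference was 0.80 (SE 0.12), and control array 2 came closest to the insulin group, at a gap of 1.51 times. EBP, the isomerase that shifts a double bond in the sterol ring, had 1158, 1115 and 1232 with insulin, against 518, 622 and 646 in control pieces. The EBP difference was 0.96 (SE 0.13), with control array 1 well below the other controls.

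INSIG1, the membrane protein that retains SREBP, is known as an insulin-induced transcript in cells of rat liver origin. It showed the largest difference of the 10 probe sets. Its signals were 1406, 1406 and 1264 on the insulin arrays and 659, 534 and 554 on the control arrays. The mean was 1358 ± 82.2 with insulin and 582 ± 67.5 in control pieces (SD, n = 3 each). The log2 difference was 1.20 (SE 0.13), and in same-numbered pairs it was 1.07, 1.37 and 1.17 for numbers 1, 2 and 3. The transcript signal of INSIG1 was thus higher together with those of the enzymes, and whether INSIG1 restrained the pathway here was not tested.

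The size of the difference did not follow the order of the steps. From the first enzyme to the last, the log2 differences were 0.94 for ACAT2, 1.01 for HMGCS1, 0.75 for MVK, 1.06 for IDI1, 0.74 and 0.75 for FDFT1, 1.09 for SQLE, 0.80 for CYP51A1 and 0.96 for EBP. Ranked by size over the 10 named probe sets, INSIG1 came first, followed by SQLE, IDI1, HMGCS1, EBP, ACAT2, CYP51A1, MVK and FDFT1. The further HMGCS1 probe set, at 1.69, lay above INSIG1, so size can depend on the probe set. The order is therefore one of these probe sets and not of the genes. Neighbours in this order were 0.00252 to 0.14 apart. The SEs of 0.11 to 0.13 belong to single differences and do not measure the spread of these gaps. In only 1 of the 9 neighbouring pairs (INSIG1 over SQLE) was the first larger in all 3 same-numbered pairs of arrays. The ends of the order were clearer: INSIG1 exceeded the brighter FDFT1 probe set by 0.46, and by 0.30 to 0.75 over the same-numbered pairs. SQLE exceeded it by 0.34, with pair values of 0.24 to 0.53. HMGCS1 exceeded it by 0.26, with pair values of 0.22 to 0.29.

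**Figure D2:**
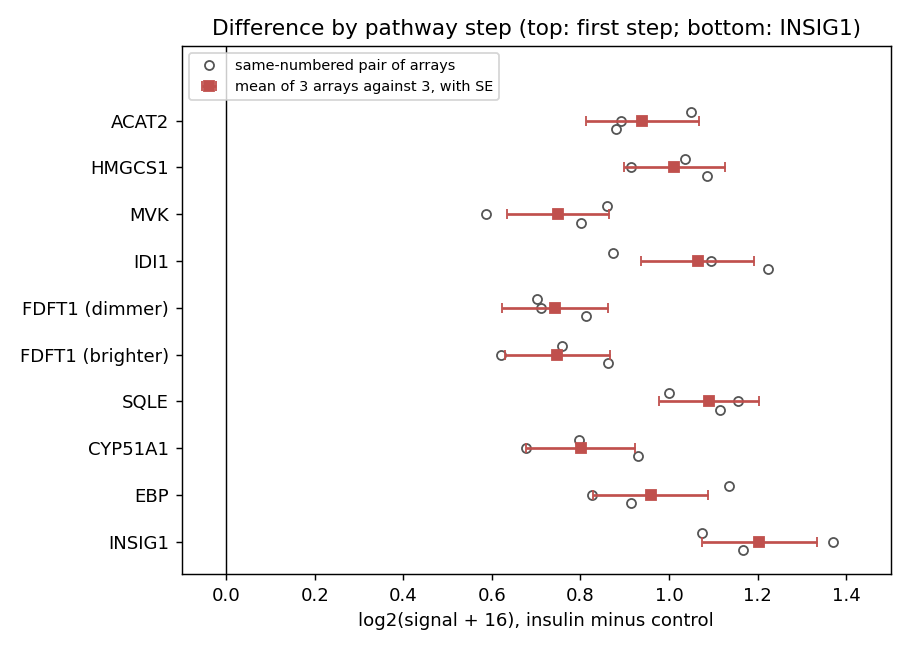
Difference between insulin and control on the log2(signal + 16) scale for each probe set, from the first pathway step at the top to INSIG1 at the bottom; red squares are differences of group means with limma SE, and open circles are the 3 same-numbered pairs of arrays. The 30 pair values run from 0.59 (MVK) to 1.37 (INSIG1), all above 0 as they must be where groups do not overlap. The size does not follow the step.

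In same-numbered pairs of arrays, the median differences over the 10 probe sets were 0.94, 0.86 and 0.92 for numbers 1, 2 and 3. All 30 single differences were above 0, which follows from groups that do not overlap and adds nothing to it. Averaged over the 10 probe sets, log2 signals were 10.86, 10.82 and 10.92 on insulin arrays 1, 2 and 3, and 9.93, 9.94 and 9.95 on control arrays 1, 2 and 3. The difference of these averages was 0.93. The insulin averages had an SD of 0.0515 and the control averages one of 0.00594.

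With insulin, array 3 was highest for 6 probe sets and array 2 lowest for 6. Control array 1 had the highest control signal for 3 probe sets (IDI1, SQLE and INSIG1), control array 2 for 3 (HMGCS1, MVK and CYP51A1) and control array 3 for 4 (ACAT2, EBP and both of FDFT1), and these deviations offset each other in the control averages. For 8 of the 10 probe sets the highest array had the same number in both groups: number 1 for SQLE and INSIG1, number 2 for HMGCS1 and CYP51A1, and number 3 for ACAT2, EBP and both of FDFT1. In that count, the lead among insulin arrays was slight for INSIG1 (1406.4 against 1405.5) and HMGCS1 (8021.8 against 8020.2). The count was not made over all probe sets. Deviations on same-numbered arrays also correlated over all probe sets tested, at 0.558, 0.313 and 0.422, so nothing particular to these genes is read from the count. On control array 1, EBP lay 0.19 below its group mean on the log2 scale while INSIG1 lay 0.18 above its own. With 1 probe set per gene, the correlation of deviations from group means across the 6 arrays averaged -0.00454 over 36 pairs of genes, of which 18 were above 0. It averaged 0.0425 over the 45 pairs that count both FDFT1 probe sets, 0.0327 over the pairs among 77 other higher rows of the authors' table and 0.00206 over all pairs of probe sets tested. These correlations share the arrays and have few degrees of freedom, and they are given as a description.

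**Figure D3:**
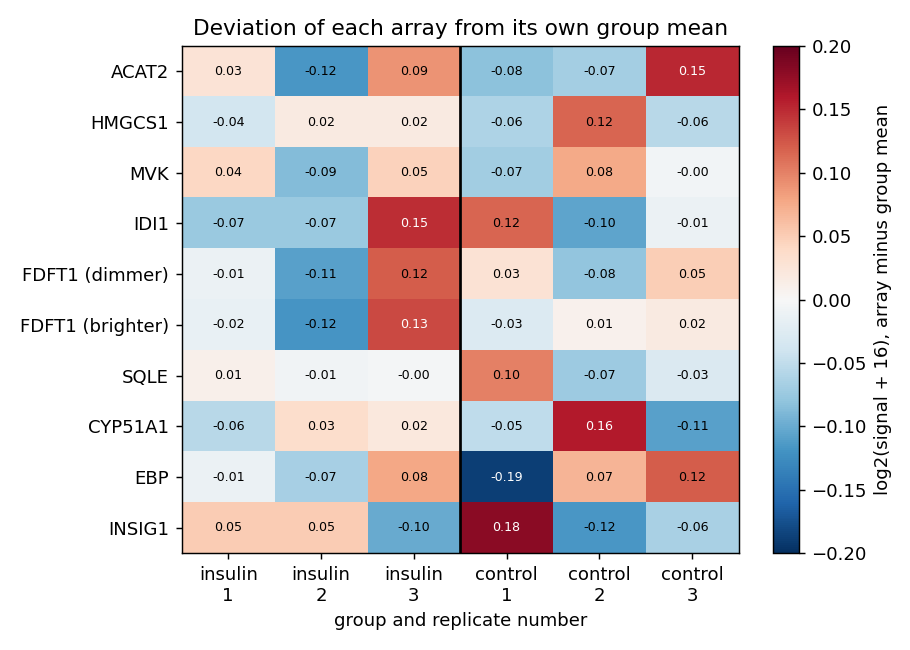
Deviation of each array from the mean of its own group (log2(signal + 16), colour and printed value) for the 10 probe sets in rows, with the insulin arrays left of the line and the control arrays right of it. No column has a single colour throughout: control array 1, for example, runs from -0.19 (EBP) to 0.18 (INSIG1).

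In the test across all probe sets, 10 of 10 passed the limma threshold (adjusted p under 0.05), where 1.18% of the 14410 probe sets passed as higher with insulin. As the genes came from a table chosen on the same contrast and arrays, nothing is read from this count. With the replicate number as a block 10 of 10 passed as well, and the background was then 3.1%. The count was 1, 1 and 2 without insulin replicate 1, 2 or 3, and 7, 3 and 0 without control replicate 1, 2 or 3. It was 0 with no filter on dim probe sets and 1 with an ordinary t statistic. Over all probe sets, 170 passed as higher in the main test. Without insulin replicate 1, 2 or 3 that number was 20, 17 and 30. Without control replicate 1, 2 or 3 it was 121, 32 and 2. Keeping the dim ones gave 1, and the ordinary t statistic gave 7. The background thus fell under each of these settings too, and the fall in count is not read as particular to these genes. By size alone, 4 of the 10 (INSIG1, SQLE, IDI1 and HMGCS1) had a log2 difference of at least 1, as did 0.694% of the probe sets tested.

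**Figure D4:**
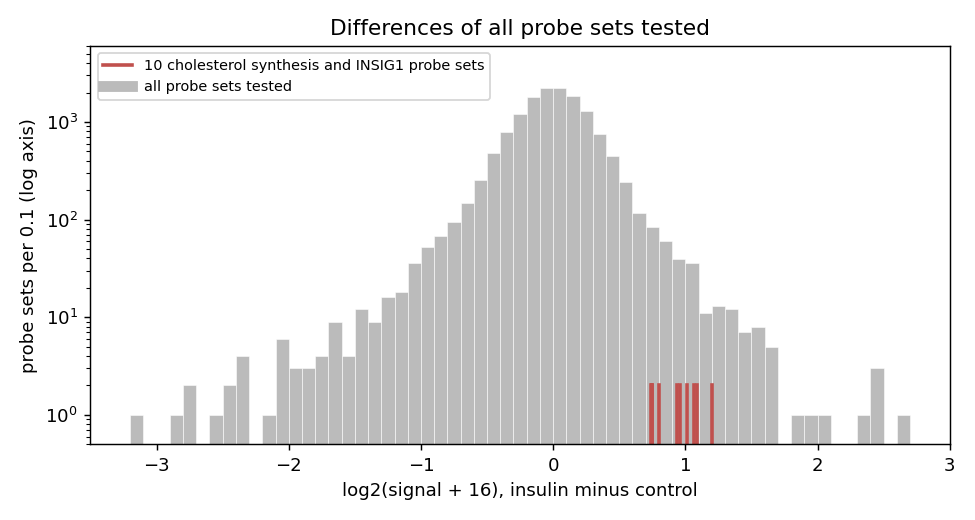
Number of probe sets (log axis) per 0.1 of log2 difference between insulin and control for the 14410 probe sets tested, with red ticks for the 10 cholesterol synthesis and INSIG1 probe sets. The red ticks lie between 0.74 and 1.20 in the upper tail, and other probe sets lie on both sides of them and beyond.

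The differences in the authors' deposited table were close to those computed here. Its log2 ratios for the 10 probe sets lay at most 0.0216 from the present ones. INSIG1 had the largest, with 1.18, and the dimmer FDFT1 probe set the smallest, with 0.73, in the authors' deposited table. The p-values of the authors' deposited table, by which the rows were chosen, ran from 3.14e-05 for SQLE to 0.00076 for EBP.

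Much of the pathway could not be examined by name. Of 25 symbols on a list of cholesterol synthesis genes, older symbols included, 8 had a row in the authors' table, and all 8 are described above. The other 17, among them PMVK, MVD, FDPS and LSS, were not analysed here. From 20 genes of sterol sensing and uptake, such as SREBF1 and SREBF2, INSIG1 was the only one named. None of 11 genes for making steroids from cholesterol and none of 8 genes that use isoprene units had a named row. Of 18 fatty acid synthesis genes, 2 were named. FASN, the fatty acid synthase, had signals of 2931, 2889 and 3021 on the insulin arrays against 1377, 1503 and 1622 on the control arrays, a log2 difference of 0.97, which lies within the range of the cholesterol genes. SCD, the desaturase, had a log2 difference of 2.04, above that range. The tissue label itself could not be checked, since 0 of 60 marker genes of oocytes, granulosa, theca, stroma and other cells had a named row.

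A further row of the authors' table, singled out after its values were seen, is titled as weakly similar to a probable ergosterol biosynthetic protein 28 of the dog. Its signals were 171, 160 and 178 on the insulin arrays and 89.5, 90.7 and 78.7 on the control arrays, a log2 difference of 0.86, and its mean lay below the filter on dim probe sets. In yeast, that protein is known to tether enzymes of sterol synthesis.

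Among the 96 other rows with a symbol, likeness was measured as the Pearson correlation over the 6 arrays with the average profile of the 10 probe sets. The closest were SCD (0.9986), BCKDHB (0.998), SLC52A3 (0.998), MGC128212 (0.996) and AAAS (0.995). BCKDHB is a subunit of the enzyme that breaks down branched-chain keto acids, SLC52A3 carries riboflavin, MGC128212 is titled as similar to a G-protein gamma subunit, and AAAS is a protein of the nuclear pore. Such values mainly reflect a clean separation of the groups and not its size, since all these rows were chosen for that separation: AAAS, with 575, 567 and 569 on the insulin arrays against 495, 496 and 490.2 on the control arrays, had a log2 difference of only 0.20. BCKDHB, with 1431, 1356 and 1492 on the insulin arrays against 794, 820.3 and 841 on the control arrays, was closer in size, at 0.79. Deviations from group means correlated with those of the average profile at 0.73 for SCD, 0.89 for BCKDHB and 0.70 for SLC52A3. For MGC128212 and AAAS they correlated at only 0.18 and 0.063.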

How the data were processed

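Signals came from 6 arrays, 3 insulin and 3 control, grouped and numbered by sample title. The deposited values are linear signal intensities of each probe set, which the authors had scaled; the submitters' processing notes name GCOS, Affymetrix's software, with no version or settings. The number of arrays limits the precision. The authors' deposited table of 158 rows gave their log2 ratio of ITS+ over TS+, the same ratio on the linear scale, a p-value and a t score, per the file headers, and its test is not stated. Its 9 per-array columns, 3 of them with day 0 names, matched no single sample and were left aside.

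Genes and lists were chosen with earlier results of these data known. Names came from that table, updated through RefSeq gene names of assembly ARS-UCD2.0. By the naming rule the text names all rows of the genes and lists, further probe sets with the genes' cluster numbers, and the 5 rows most like the genes' average.

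Signals were analysed as log2(signal + 16), which understates changes of dim probe sets. The 112 control probe sets and the dimmest 40% by mean log2 value (below a signal of 122) were left out. Insulin was compared with control over 14410 probe sets with limma 3.58.1 (R 4.3.3, lmFit, eBayes, Benjamini-Hochberg threshold 0.05). The code was also run on simulated arrays with independent noise, which does not check it for arrays that vary in pairs. The labels do not say whether replicates were separate cultures or fetuses, so limma's p-values reflect only how these samples vary, which may be technical. Deviations from group means correlated at 0.558, 0.313 and 0.422 between same-numbered arrays and at -0.411 to 0.130 between others. The numbers thus pair the arrays by the data, not by the labels. The SEs given are from the fit without a block, which leaves this pairing out. Alternatives changed the pseudocount, the filter, the normalization, the variance model and the block, or left out each array. Python 3.11.15 with pandas 2.3.3 and matplotlib 3.10.9 made the rest.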

Additional observations from a re-analysis of the deposited data

How the results depend on the processing

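The log2 differences of the 10 single probe sets were recomputed under other pseudocounts, quantile normalization, median centring and the omission of each array. The 100 values ran from 0.68 to 1.29, and all moved by less than 1 SD between replicates. As the groups did not overlap, other pseudocounts and omissions could not have changed the sign. Omitting 1 of 3 arrays could not have moved a value by 1 SD either, so for omissions both outcomes were fixed in advance. Their median of 0.95 was 0.91 with a pseudocount of 64 and 0.88 to 1.00 when 1 array was left out. The count of groups that did not overlap stayed at 10 under both normalizations. Leaving out an array could not lower it, since none of the 10 overlapped with all arrays in. Over all probe sets, 326 passed the threshold (170 higher, 156 lower). The count was 2 with no filter on dim probe sets, 12 with an ordinary t statistic, 542 with a trended robust variance, 605 with array weights, 916 with the replicate block and 948 with block and quantile normalization. With 1 array left out it ran from 3 (without control replicate 3) to 242 (without control replicate 1), and was 30, 40 and 59 without insulin replicate 1, 2 or 3 and 49 without control replicate 2. An omission leaves fewer samples, and no filter adds tests. The cause of the change in count was not tested for any setting. The further FDFT1 probe set lay at signals too low to measure, and the further HMGCS1 probe set was the only other one of its cluster, so their median says little.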
